A study of Mus musculus with 18 samples.

Results

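Genes of the mouse ileum that stood transiently high or low on postnatal day 24 are described here, by setting the mean of the day 24 arrays against day 11, the sampled age before it, and day 32, the sampled age after it. The ileum is the last stretch of the small intestine, and each piece held all its layers, so RNA came from epithelium as well as muscle, nerve, vessels and immune cells. C57BL/6 mice, an inbred laboratory strain, were sampled on days 4, 7, 9, 11, 24 and 32, with 3 individual mice and hence 3 Affymetrix arrays at each age, 18 in all. The 3 arrays each of days 11, 24 and 32, 9 in all, carry the comparison, and the labels name no treatment, sex, litter, diet or weaning day. Levels are the deposited log2 values, so that a difference of 1 is a 2-fold change. Of 18193 genes with a probe set of their own (the brightest one stands for the gene), 8621 reached log2 6 on at least 3 arrays and were tested. A transient peak is a gene whose day 24 mean was above both neighbouring ages, with each difference at an adjusted p below 0.05 (limma, adjusted over all genes tested), and a transient dip is its mirror image. The search found 170 peaks and 251 dips.

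Mice pass between these ages from milk to solid food, and the epithelium exchanges its suckling enterocytes, which take up milk macromolecules into large lysosomes, for enterocytes that digest starch and sugar at the brush border. Circulating glucocorticoid rises over the same weeks, and the gut is colonised by a richer flora. A bulk array reads the mean over all cells of the piece, so more cells of a type and more RNA per cell cannot be told apart in any value below.

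The labels fitted the stage markers. Lct, the lactase of milk digestion, was at 11.34, 11.06 and 11.29 on day 11, 10.77, 9.54 and 8.49 on day 24, and 3.13, 3.24 and 3.84 on day 32. Treh, the trehalase of the weaned brush border, was at 3.33, 2.86 and 2.91 on day 11, 8.80, 8.22 and 8.40 on day 24, and 7.85, 7.86 and 8.56 on day 32. Lactase was thus still well above its day 32 level on all 3 arrays of day 24, while trehalase had already reached that level. The summed level of the 9 ileal bile acid genes on the array was 13.53 to 13.81 on day 24, against 11.48 to 11.88 on day 11 and 13.65 to 13.81 on day 32.

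Day 24 also differed from its neighbours in control probe sets of the arrays. The control probe sets for 18S ribosomal RNA read 8.19, 5.78 and 5.60 on day 11, 10.85, 10.29 and 10.26 on day 24, and 7.01, 7.84 and 7.96 on day 32, so the 3 arrays of day 24 lay above all others. The day 24 mean exceeded the mean of the neighbouring arrays by 3.40, with a two-sided exact permutation p of 0.0119, the smallest that 3 arrays against 6 can give. The 3' minus 5' difference of the beta-actin controls, which grows when RNA is broken or copied incompletely, was 0.76, 0.35 and 0.39 on day 11, 0.61, 0.65 and 1.41 on day 24, and 0.59, 0.49 and 0.48 on day 32 (two-sided exact permutation p = 0.0476, day 24 against both neighbours). The 18S controls move with every result on day 24, while the beta-actin difference stood out on replicate 3 of that age alone. Their part in the results was not tested beyond fits that hold a control level constant. Fits with the beta-actin difference or the poly-A controls held constant are given at the end, and the fit with the 18S level constant follows here. In that fit 32 of the 170 peaks and 29 of the 251 dips were still called, all 170 and 246 kept their direction, and the standard error of the day 24 minus day 32 difference grew by a median factor of 1.56. A pulse called kept or lost below was still called, or no longer called, in that fit. Age stays a factor there, so the 18S slope rests on scatter within ages and the fit cannot separate 18S from day 24. A lost call need not mean a smaller difference, since the standard error also grew.

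**Figure D1:**
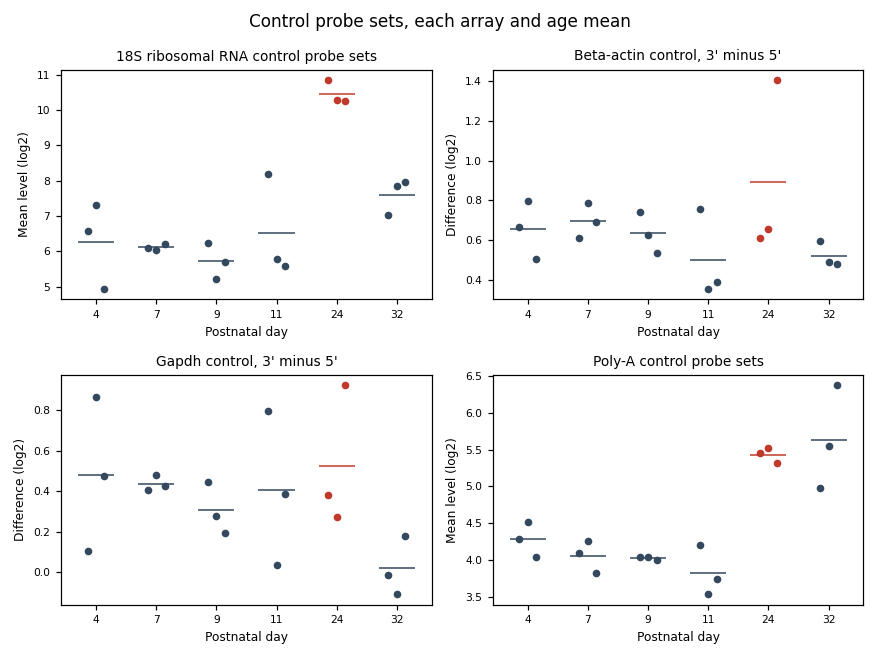
Control probe sets on each of the 18 arrays (points) with the mean of each age (lines), by postnatal day, on the log2 scale, with day 24 in red. The 18S controls averaged 10.47 on day 24, against 6.52 on day 11 and 7.60 on day 32, and 1 array of day 24 stood at 1.41 in the beta-actin difference.

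Against the average of days 11 and 32, 1526 genes were higher on day 24 (17.7% of those tested) and 1911 were lower (22.2%), 3437 in all (39.9%). Much of this is no pulse, since a gene that changes between days 11 and 24 and then stays also departs from the average. Of the 1526, the day 24 mean lay above both neighbours for 1106 and between them for 420, of which 405 were higher on day 32 than on day 11. Of the 1911, it lay below both for 1347 and between them for 564. On day 24, 2312 genes were higher (26.8%) and 2788 lower (32.3%) than on day 11, while 537 were higher (6.23%) and 525 lower (6.09%) than on day 32. Both requirements together left the 170 peaks (1.97% of genes tested) and 251 dips (2.91%). Both comparisons use the same day 24 arrays, so an array that reads high there raises both differences. A further 127 genes rose past day 11 and were higher still on day 32, and 207 fell below day 11 and were lower still on day 32, which makes them steps on a course and not pulses.

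**Figure D2:**
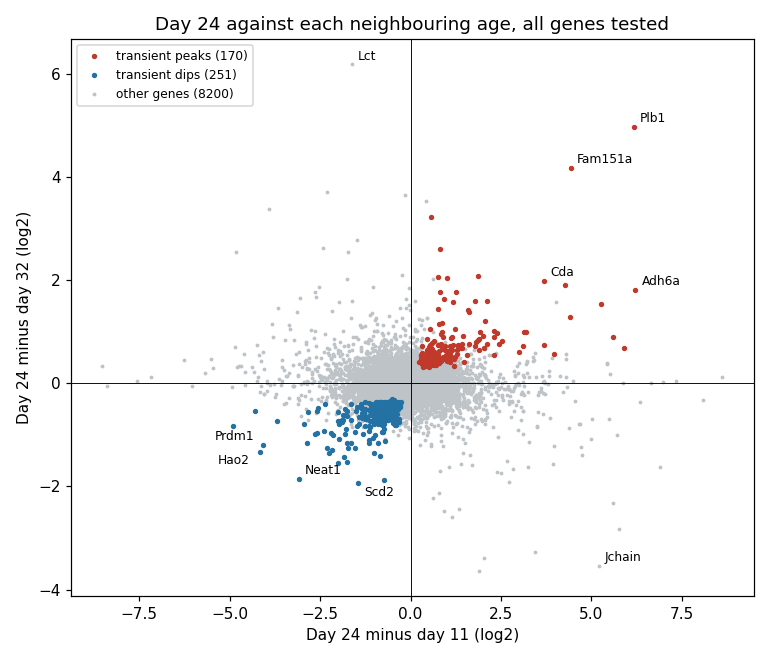
Day 24 minus day 11 (horizontal) against day 24 minus day 32 (vertical), both in log2, for the 8621 genes tested, with the 170 transient peaks in red and the 251 transient dips in blue. Plb1 and Fam151a stand apart at the upper right, at 4.97 and 4.19 over day 32, and Neat1 and Scd2 lie lowest among the dips named at the lower left.

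Most pulses were modest. The median of the smaller of a gene's differences was 0.57 for peaks and -0.53 for dips, and 19 peaks and 21 dips were at least 2-fold away from both neighbours. For 159 peaks the 3 day 24 arrays lay above all 6 arrays of days 11 and 32 (358 genes of all tested, 4.15%), and for 234 dips they lay below all 6 (529 genes, 6.14%). Just inside the threshold were Arg2 (adjusted p = 0.0490) and Rnf125 (0.0495), and just outside it Ap1g2 (0.05004) and Hp1bp3 (0.0505). A total of 18 peaks, Plb1, Fam151a, Tmed6, Slc7a15, Gprc5a and Slc2a5 among them, passed the filter on dim probe sets only through the day 24 arrays, as did 132 of all genes tested, and such genes had to differ.

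Days 4, 7 and 9 entered neither difference that defines a pulse, although their arrays shared in the estimate of the spread, the filter and the choice of probe set. Day 24 was also higher than the mean of those ages for 159 of the 170 peaks (26.1% of all genes tested were higher), with 0 lower, and lower for 237 of the 251 dips (37.9% of all genes tested were lower), with 0 higher. Of the 6 age means, that of day 24 was the highest for 166 peaks and the lowest for 246 dips. Since these comparisons use the same day 24 arrays, they place the neighbours beside the other suckling ages and add no second measurement of day 24. A second probe set offers one within the same arrays. Of 51 peaks with another tested probe set, all the others lay on the same side for 42 and at least 1 was also called a peak for 17, while for dips the numbers were 78 and 30 of 113. At least 1 other probe set lay on the opposite side of both neighbours for 6 peaks and 5 dips, and for 1 peak, Atpaf1, it was called a dip.

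The pulses ended at different levels. By day 32, 67 peaks were still higher than on day 11, 10 had fallen below day 11, and 93 did not differ from it by the test. Of the dips, 105 were still lower on day 32 than on day 11, 6 had overshot it, and 140 did not differ from it by the test. Plb1, Cda, Cyp4b1, Adh6a and Slc7a15 are peaks of the first kind, and Il33, Chga and Chgb of the second.

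The largest fitted differences among the peaks were those of Plb1, phospholipase B1, an enzyme of the brush border that splits dietary phospholipids and retinyl esters. It was at 3.61, 3.68 and 3.97 on day 11, 10.43, 10.07 and 9.30 on day 24, and 5.95, 5.17 and 3.75 on day 32. All 3 day 24 arrays were above 9, and the day 11 arrays and 1 array of day 32 lay near the array medians of 3.88 to 3.97, where signal cannot be told from background. The fitted log2 difference was 6.18 ± 0.38 over day 11 (SE; adjusted p = 1.77e-10) and 4.97 ± 0.38 over day 32 (adjusted p = 1.09e-07), sizes that depend on the background correction because the neighbours are so dim. Fam151a, which encodes a membrane protein, was at 3.90, 3.48 and 3.54 on day 11, 8.43, 7.78 and 8.0 on day 24, and 3.96, 4.06 and 3.64 on day 32. It was near background at every age except day 24, so the same holds for its differences of 4.43 ± 0.17 over day 11 and 4.19 ± 0.17 over day 32 (adjusted p = 2.81e-13 and 3.80e-11). Both genes had been put in a list of suckling enterocyte genes, and both were near background on days 4 to 11, so that the list's name does not describe them here. With the 18S level held constant they were still called, at 5.49 over day 32 for Plb1 and 3.82 over day 32 for Fam151a.

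The sequences just upstream of these 2 starts are shown because they are the 2 peaks with the largest fitted differences. RefSeq promoter windows of the assembly GRCm38.p6 (250 bases before the start) were on hand for 132 of the 170 peaks, 196 of the 251 dips and 7036 of the 8621 genes tested. The stretches read 5′ to 3′ on the gene's strand, and capitals mark the longest run that both windows share, 13 bases, which starts 46 bases before the Plb1 start and 72 before the Fam151a start. The first lies at chr5:32238964-32239083 on the plus strand (1 of 2 Plb1 windows) and the second at chr4:106733789-106733908 on the plus strand.
Plb1: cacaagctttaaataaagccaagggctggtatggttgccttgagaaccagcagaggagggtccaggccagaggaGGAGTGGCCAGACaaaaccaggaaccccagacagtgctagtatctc
Fam151a: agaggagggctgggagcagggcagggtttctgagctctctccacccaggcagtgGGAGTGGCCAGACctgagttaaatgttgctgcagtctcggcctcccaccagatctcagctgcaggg
On either strand, GGAGTGGCCAGAC was found in 2 of the 7036 windows (0.0284%), these 2 alone. The run was looked for because the pair was known, so the count describes the letters and no more.

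Other large peaks were enzymes and transporters of the epithelium. Adh6a, an alcohol dehydrogenase, was at 2.62, 2.89 and 2.89 on day 11, 8.91, 9.31 and 8.82 on day 24, and 7.39, 7.30 and 6.90 on day 32. After its rise by day 24 it gave back 1.82 ± 0.17 by day 32 (SE; adjusted p = 1.47e-06). Cda, the cytidine deaminase of pyrimidine salvage, was at 4.86, 4.49 and 5.13 on day 11, 8.65, 8.54 and 8.37 on day 24, and 6.41, 6.40 and 6.78 on day 32 (3.69 ± 0.20 over day 11 and 1.99 ± 0.20 over day 32; adjusted p = 4.32e-11 and 3.73e-06). Slc9a3, the sodium-proton exchanger NHE3 that takes up sodium across the brush border, was at 5.13, 5.45 and 5.78 on day 11, 6.63, 8.48 and 7.63 on day 24, and 6.02, 6.11 and 5.81 on day 32. Its day 24 arrays spread widely yet lay above all 6 neighbours (2.13 ± 0.30 and 1.60 ± 0.30; adjusted p = 9.07e-06 and 0.00222). Slc7a15, an amino acid transporter of mice, gained 4.40 ± 0.17 over day 11 and stood 1.29 ± 0.17 above day 32.

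The remaining genes among the 12 largest peaks without overlapping arrays were of mixed kinds. Bst1, an ectoenzyme of NAD metabolism also found in the Paneth cell niche, was at 6.45, 7.25 and 7.37 on day 11, 9.07, 8.91 and 8.67 on day 24, and 7.33, 6.80 and 6.25 on day 32. It came back on day 24 to levels like those of day 4, where it averaged 8.52, after lower levels in late suckling, and was lowest on day 32. The other tested Bst1 probe set averaged 8.04 on day 4, 6.75 on day 11, 7.42 on day 24 and 4.91 on day 32. It was not called over day 11. Tm4sf5, a membrane protein with 4 spans, was the brightest of the set, at 9.37, 9.35 and 9.58 on day 11, 11.26, 10.93 and 10.86 on day 24, and 9.39, 9.75 and 9.65 on day 32. The groups were narrow and far apart (1.58 ± 0.12 over day 11 and 1.42 ± 0.12 over day 32, SE). Tmed6, of a family of cargo carriers between the endoplasmic reticulum and the Golgi, stood 1.63 ± 0.21 above day 11 and 1.38 ± 0.21 above day 32. Il33, an alarmin cytokine of epithelium and stroma, was at 5.75, 6.04 and 5.91 on day 11, 6.79, 7.75 and 6.92 on day 24, and 5.86, 5.09 and 5.19 on day 32, and so ended below its day 11 level. Of the 12, 11 were still called with the 18S level held constant, and Usp18 was not. Genes outside these 12, picked after their values were seen, include the orphan receptor Gprc5a (2.07 ± 0.19 over day 11, 1.22 ± 0.19 over day 32), the aromatic amino acid transporter Slc16a10 (1.23 ± 0.14 and 1.05 ± 0.14) and the VIP receptor Vipr1 (2.01 ± 0.14 and 0.93 ± 0.14), and Slc16a10 alone of these 3 was kept in the fit with 18S.

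**Figure D3:**
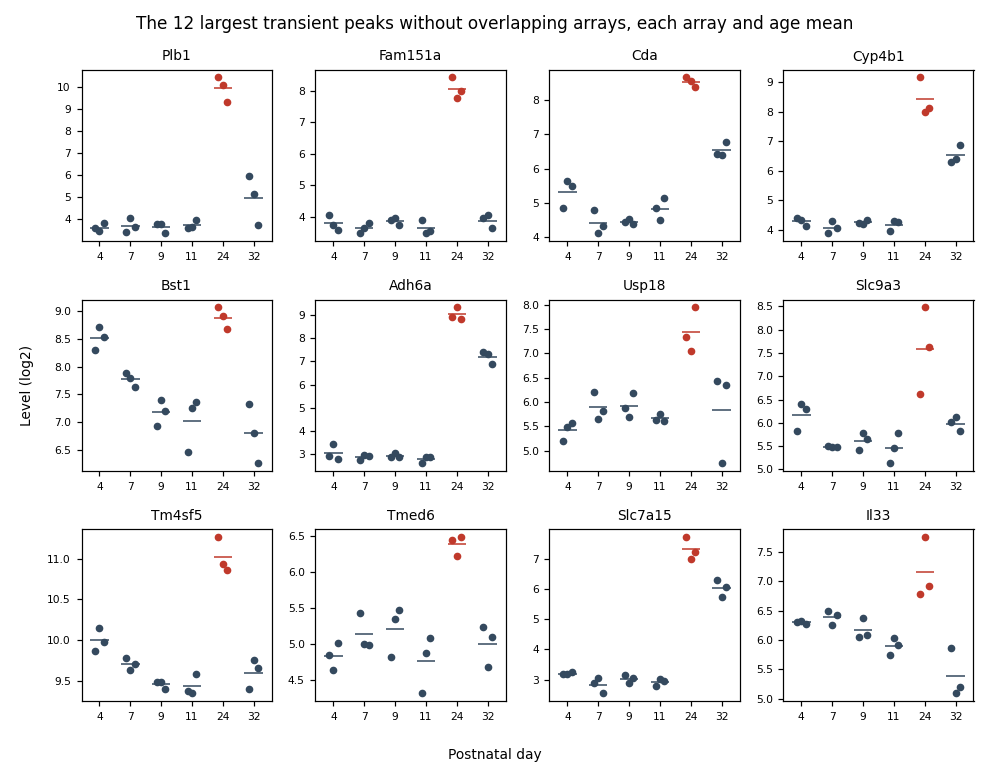
Log2 levels on each array (points) with age means (lines), by postnatal day, of the 12 largest transient peaks among those chosen for arrays that do not overlap days 11 and 32, with day 24 in red and a scale for each panel. Plb1 and Fam151a were near background at the other ages up to day 11, and Bst1 was also high on day 4, averaging 8.52.

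Interferon-stimulated genes were a divided group. Of 14 tested, 7 were higher on day 24 than the average of the neighbours (17.7% of all genes tested were), with a median of 0.51 against -0.01 for all genes, and 3 were peaks (1.97% of all genes tested were): Usp18, Oasl2 and Oas1a. Usp18, which removes the ubiquitin-like ISG15 from proteins and restrains interferon receptor signalling, was at 5.63, 5.76 and 5.61 on day 11, 7.33, 7.05 and 7.95 on day 24, and 6.42, 4.74 and 6.35 on day 32. Day 32 was thus uneven, with replicate 2 far below the other arrays of its age, as it also was for Oasl2 at 8.07 beside 8.83 and 9.01. Oas1a, of the oligoadenylate synthetases that sense double-stranded RNA, was at 8.90, 9.04 and 9.14 on day 11, 10.07, 9.79 and 10.61 on day 24, and 9.54, 9.17 and 9.65 on day 32 (adjusted p = 0.0278 against day 32). It lost that call without day 24 replicate 3, day 32 replicate 1 or day 32 replicate 2, with an adjusted p of up to 0.154. All 3 tested Oas genes were peaks, the other being Oasl1 (1.29 ± 0.15 over day 11 and 0.66 ± 0.15 over day 32), and Ifi35, Ifi27l2a, Xaf1, Ifih1 and Trim30a, chosen after their values were seen, were peaks too. Like Oasl1, all 5 of these were lost with the 18S level held constant. Of 23 tested Ifi, Ifit and Irf genes, gathered by symbol, 2 were peaks (1.97% of all genes tested). Against day 11, 6 of the 23 were higher and 6 lower (26.8% and 32.3% of all genes tested). The 28 tested Trim genes held 1 peak and 1 dip (1.97% and 2.91% of all genes tested). Stat2, of the interferon pathway, was called a dip, which was lost with 18S. Others went elsewhere: Ifit1 averaged 10.13 on day 11, 9.19 on day 24 and 8.17 on day 32, and Irgm1 6.14, 7.94 and 8.31 at those ages. None of the list's 3 peaks was kept with the 18S level held constant, where the day 24 minus day 32 difference was 1.83 for Usp18 (adjusted p = 0.0774), 1.00 for Oasl2 (0.0524) and 0.87 for Oas1a (0.173).

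The interferon-stimulated response element bears on these genes, and its core, a pair of GAAA blocks with 2 bases of any kind between them, searched on both strands, was found in 9 of 132 peak windows (6.82%), in 2.55% of dip windows and in 3.11% of all 7036. Those peaks were Adh6a, Cyp4v3, Gstt1, Mmrn1, Oas1a, Rnase1, Sgk1, Sst and Trim30a, most of which are not interferon genes. The windows of Oas1a, with a pair of overlapping matches, and Trim30a, with 1 match read on the opposite strand, are shown with the matches in capitals as the clearest examples. They lie at chr5:120907526-120907585 and chr7:104465195-104465254 of GRCm38.p6, both on the minus strand (RefSeq), each ending 1 base before the start.
Oas1a: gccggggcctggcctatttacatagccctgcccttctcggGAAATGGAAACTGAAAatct
Trim30a: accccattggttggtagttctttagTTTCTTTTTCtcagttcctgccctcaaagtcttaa
Of the interferon-stimulated list, 6 of 9 windows of genes that were not peaks also held the core, as did 1 of 2 windows of peaks.

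Heat shock genes, which encode protein-folding chaperones, were mixed. Of 11 tested, 3 were peaks, against 1.97% of all genes tested, and 5 were higher and 1 lower than the average of the neighbours (median 0.34), against 17.7% and 22.2% of all genes. Hspa1b, the inducible Hsp70 chaperone, was at 7.29, 7.87 and 7.64 on day 11, 8.20, 9.41 and 8.70 on day 24, and 7.12, 7.23 and 7.24 on day 32 (1.17 ± 0.22 and 1.58 ± 0.22, SE; adjusted p = 1.74e-04 and 1.28e-04). Both other probe sets of the gene were called peaks as well, and the call held with the 18S level constant. Hsph1, the Hsp110 chaperone, was at 7.50, 7.87 and 7.68 on day 11, 8.06, 9.43 and 9.10 on day 24, and 8.33, 7.98 and 8.05 on day 32, so that 1 array of day 24 lay inside the day 32 range. The other tested Hsph1 probe set stood 0.34 above day 11 and 0.66 above day 32 and was not called. Hspb1, the small chaperone Hsp27, averaged 9.46 on day 24, against 8.86 on day 11 and 8.90 on day 32, and its other probe set was called a peak. Neither Hsph1 nor Hspb1 was kept with 18S. Both lost the call without day 32 replicate 1 or replicate 2, and Hsph1 also without day 32 replicate 3, day 24 replicate 2 (0.46 in place of 0.74) or day 24 replicate 3. Dnajb1 and Bag3, also inducible, were no peaks, with averages of 8.42 and 6.70 on day 11, 8.58 and 7.66 on day 24, and 8.0 and 7.26 on day 32. The constitutive Hspa8 averaged 12.28 on day 11, 11.75 on day 24 and 11.46 on day 32, and Hspd1 of mitochondria 10.45, 10.60 and 10.59 at those ages. The heat shock element, GAA, TTC and GAA in that order with 2 bases of any kind between blocks, searched on both strands, was in 0 of the 3 windows of these peaks and in 0.483% of all windows. Of the heat shock list, 2 of 6 windows of genes that were not peaks held it. With so few windows the count says little about these peaks.

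Markers of enteroendocrine cells, the hormone-secreting cells of the epithelium, gave 3 peaks among 11 tested (1.97% of all genes), and 6 of the 11 were higher than the average of the neighbours (17.7% of all genes; median 0.39). Chga, chromogranin A of secretory granules, was at 6.78, 6.91 and 7.03 on day 11, 7.91, 7.54 and 8.02 on day 24, and 6.15, 6.34 and 6.07 on day 32. Chgb, its relative, was at 8.76, 8.77 and 8.81 on day 11, 9.47, 9.48 and 9.67 on day 24, and 8.01, 8.22 and 8.08 on day 32. In both the 3 ages formed separate bands, with day 32 the lowest (Chga 0.91 ± 0.14 over day 11 and 1.64 ± 0.14 over day 32; Chgb 0.76 ± 0.10 and 1.44 ± 0.10). Sst, somatostatin, averaged 7.40 on day 24, against 6.86 on day 11 and 6.65 on day 32. All 3 were kept in the fit with 18S. Other hormone genes were not called peaks: Gip averaged 7.48 on day 11, 7.92 on day 24 and 4.38 on day 32, Sct 7.80, 8.22 and 7.86, Nts 10.29, 10.12 and 9.33, and Gcg 8.10, 8.27 and 8.39. Gip and Sct were thus highest on day 24 of these 3 ages in their means, without passing the test against day 11. The summed level of the whole marker list was 11.95 to 12.04 on day 24, against 11.66 to 11.90 on day 11 and 11.23 to 11.39 on day 32. Ddc, the decarboxylase that makes serotonin and dopamine, was also a peak (1.81 ± 0.16 over day 11 and 0.80 ± 0.16 over day 32), was picked after its values were seen, and was lost with 18S.

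A few genes of the list for adult brush border digestion and sugar uptake peaked on day 24. Of 14 tested members of the adult brush border list, 11 were higher than the average of the neighbours (17.7% of all genes; median 1.30), and 3 were peaks (1.97% of all genes). Slc2a5, the fructose transporter GLUT5, was at 4.97, 4.49 and 4.85 on day 11, 7.67, 6.75 and 6.80 on day 24, and 6.30, 5.98 and 5.91 on day 32 (2.31 ± 0.23 over day 11 and 1.01 ± 0.23 over day 32; adjusted p = 1.18e-07 and 0.00790). Khk, ketohexokinase, which phosphorylates fructose, was at 6.63, 6.58 and 6.73 on day 11, 8.98, 8.40 and 8.64 on day 24, and 8.09, 7.86 and 8.0 on day 32. The excess over day 32 was 0.69 ± 0.19 and lost its call without day 24 replicate 1, day 24 replicate 3, day 32 replicate 2 or day 32 replicate 3. Arg2, the mitochondrial arginase, was at 2.54, 2.32 and 2.66 on day 11 and at 9.16, 7.95 and 8.06 on day 24, while its excess of 0.68 ± 0.22 over day 32 rested on replicate 1 of day 24 and fell to 0.29 without it. Leaving out any one of the 6 arrays of days 11 and 32 also ended the Arg2 call. These 3 genes were not kept with 18S.

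**Figure D4:**
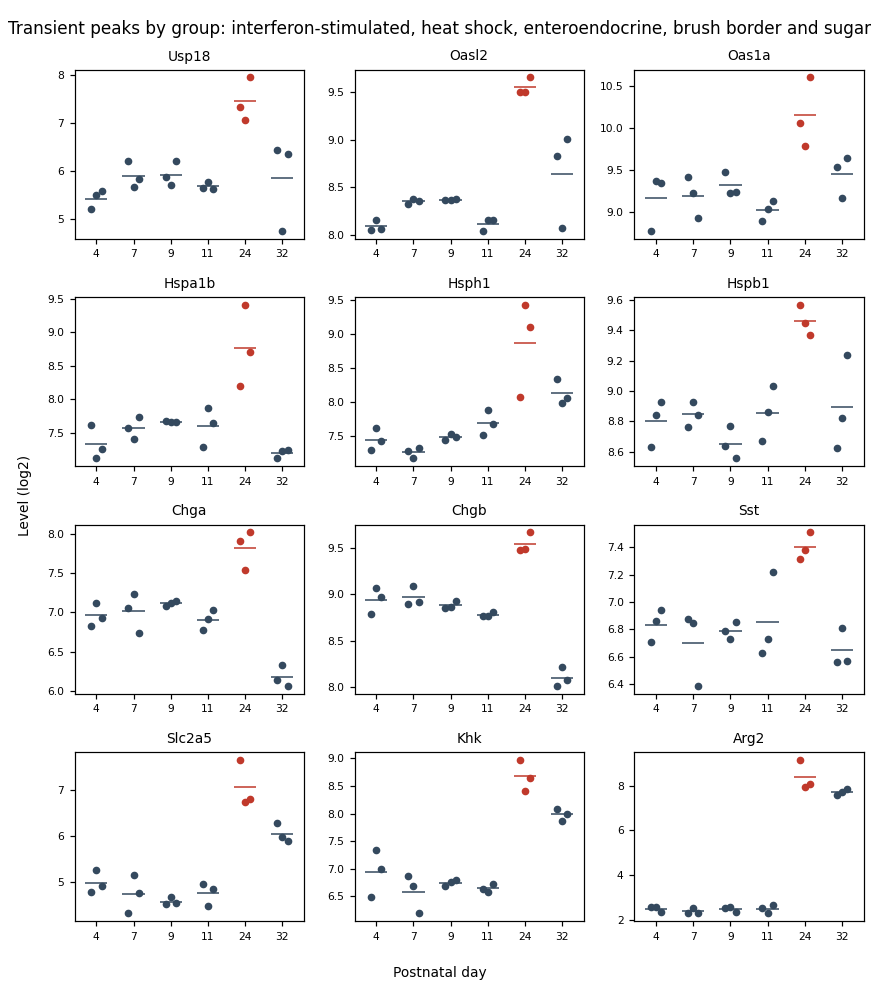
Log2 levels on each array (points) and age means (lines) of transient peaks from the interferon-stimulated, heat shock, enteroendocrine and brush border lists, one list to a row, by postnatal day, with day 24 in red and a scale for each panel. Usp18 has 1 low array on day 32 at 4.74, 1 Hsph1 array of day 24 at 8.06 lies within the day 32 range, and Chga and Chgb lie lowest on day 32.

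Genes of xenobiotic metabolism rose by day 24, and a few then receded. Of 15 tested, 12 were higher than on day 11 (26.8% of all genes tested were), 11 were higher than the average of the neighbours (17.7%; median 0.93) and 4 were peaks (1.97%): Cyp4b1, Cyp2d26, Gstm3 and Cyp3a13. Cyp4b1, a P450 that hydroxylates fatty acids and foreign compounds, was at 3.94, 4.29 and 4.25 on day 11, 9.16, 7.99 and 8.13 on day 24, and 6.28, 6.41 and 6.87 on day 32 (4.26 ± 0.23 and 1.90 ± 0.23, SE). Cyp2d26 was at 10.19, 9.37 and 8.60 on day 24 and at 7.44, 7.29 and 8.82 on day 32, so that the groups overlapped, and the call was lost without day 32 replicate 2 (adjusted p = 0.0545). Of all 18 tested P450 genes, a family gathered by symbol, 13 were higher than the average (17.7% of all genes) and 5 were peaks (1.97%). The P450 peaks outside the list were Cyp4v3 and Cyp2j6. Cyp4b1 and Cyp3a13 were kept with 18S, and Cyp2d26, Gstm3, Cyp4v3 and Cyp2j6 were not.

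Among 10 tested glucocorticoid-induced and metallothionein genes, 5 were higher than the average of the neighbours (17.7% of all genes; median 0.70) and 2 were peaks (1.97% of all genes). Fkbp5, a co-chaperone of the glucocorticoid receptor, was at 5.27, 5.76 and 5.81 on day 11, 8.16, 8.25 and 8.01 on day 24, and 7.24, 7.47 and 7.24 on day 32 (2.53 ± 0.15 and 0.82 ± 0.15; adjusted p = 1.69e-10 and 0.00213). It was kept with 18S. Sgk1, a kinase that raises sodium uptake, was at 9.06, 9.23 and 8.94 on day 11, 10.25, 9.94 and 10.37 on day 24, and 9.03, 9.00 and 9.88 on day 32, where replicate 3 stood nearly 1 log2 unit above the others. Its call was lost without day 24 replicate 3, day 32 replicate 1 or day 32 replicate 2, and with 18S. Of the 10 genes, 5 were higher and 2 lower on day 24 than on day 11 (26.8% and 32.3% of all genes tested). Tsc22d3 averaged 7.78 on day 11, 6.86 on day 24 and 5.70 on day 32, and Per1 6.01, 5.58 and 4.84. The metallothioneins Mt1 and Mt2 averaged 10.96 and 9.04 on day 11, 10.94 and 9.00 on day 24, and 9.52 and 7.15 on day 32. Tnfaip3 and Junb, both fast-induced genes of inflammation and growth signals, were peaks with an excess over day 32 of 0.55 ± 0.13 and 0.55 ± 0.16. Both were lost with 18S. Tnfaip3 lost the call without day 32 replicate 2 (adjusted p = 0.0520), and Junb without replicate 1 or 3 of either day 24 or day 32 (0.37 without day 32 replicate 3).

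Peaks also appeared among genes of muscle and secreted nucleases. Des, desmin of muscle filaments, averaged 9.73 on day 24, against 8.88 on day 11 and 8.97 on day 32, and Actg2, the enteric smooth muscle actin, 11.60 against 11.26 and 11.10, with overlapping arrays. They were the 2 peaks among 11 tested smooth muscle genes (1.97% of all genes tested were peaks). The summed level of the 13 smooth muscle genes on the array was 14.33 to 14.56 on day 24, 14.51 to 14.62 on day 11 and 14.14 to 14.37 on day 32. Neither Des nor Actg2 was kept with 18S. Des was not called without day 24 replicate 3 or day 32 replicates 1 or 2, and Actg2 was not called without any 1 of 6 arrays (replicates 1 and 2 of each of the 3 ages). Dnase1 and Rnase1, nucleases that the pancreas and gut secrete, were picked after their values were seen. Dnase1 was at 7.57, 7.76 and 7.63 on day 11, 8.63, 8.38 and 8.37 on day 24, and 6.11, 6.38 and 5.07 on day 32, and Rnase1 averaged 7.49 on day 24, against 6.74 on day 11 and 5.44 on day 32. Both stood further above day 32 (2.60 ± 0.22 for Dnase1 and 2.06 ± 0.13 for Rnase1) than above day 11 (0.81 ± 0.22 and 0.76 ± 0.13), and both were kept with 18S. The summed pancreatic acinar markers were at 10.45 to 10.87 on day 24, against 8.47 to 8.82 on day 11 and 10.00 to 10.52 on day 32, mostly through Pnliprp2 and Clps, while Cpa1, Cpb1, Cela2a and Cel averaged 2.83 to 3.61 on day 24, below the array medians. Reg1 and Prss2 of the same list, too dim to be tested, averaged 3.49 and 4.69 on day 11, 6.52 and 5.30 on day 24, and 4.38 and 5.17 on day 32, so that Reg1 also stood highest on day 24. The part of other tissues in the Dnase1 and Rnase1 peaks was not tested further.

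The deepest dip was Neat1, a long nuclear RNA that builds paraspeckles. It was at 10.97, 11.05 and 10.74 on day 11, 8.19, 7.68 and 7.63 on day 24, and 9.66, 9.97 and 9.41 on day 32. The 3 ages formed separate bands, with day 24 8.51-fold below day 11 (log2 difference -3.09 ± 0.18, SE; adjusted p = 8.48e-11) and 3.61-fold below day 32 (-1.85 ± 0.18; adjusted p = 1.91e-06). Several other deep dips encode nuclear proteins. Tet2, which oxidises methylcytosine in DNA, was at 7.18, 6.53 and 6.79 on day 11, 4.79, 4.19 and 4.72 on day 24, and 6.20, 5.97 and 5.58 on day 32. The other tested Tet2 probe set lay on the same side, at -0.33 against day 32, and was not called a dip. Hoxb3, a homeobox factor of body axis patterning, was at 6.25, 6.16 and 5.58 on day 11, 4.08, 3.88 and 4.01 on day 24, and 5.42, 5.68 and 5.53 on day 32. Its day 24 arrays were at the array medians, so its depth of -1.55 ± 0.15 against day 32 depends on the background correction. Bclaf1, a nuclear factor of transcription and RNA processing, fell 2.18 ± 0.19 below day 11 and 1.29 ± 0.19 below day 32, and its 3 other probe sets lay on the same side, 2 of them called.

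Trp53inp1, a p53-induced gene of stress response and autophagy, was at 8.81, 8.72 and 8.32 on day 11, 6.87, 6.93 and 6.78 on day 24, and 8.84, 8.23 and 8.10 on day 32. Scd2, a stearoyl-CoA desaturase that makes monounsaturated fatty acids, was at 10.05, 10.52 and 10.38 on day 11, 8.72, 9.00 and 8.88 on day 24, and 10.45, 11.11 and 10.82 on day 32. Both other Scd2 probe sets were called dips as well, and Scd2 is 1 of the 6 dips that ended above day 11. Prdm1, the repressor Blimp-1 that holds suckling enterocytes in their immature state in mice, was at 9.23, 9.04 and 8.77 on day 11, 4.93, 5.02 and 4.88 on day 24, and 6.22, 5.98 and 6.19 on day 32. On day 24 it lay 1.19 ± 0.12 below its day 32 level (adjusted p = 2.59e-06) and 16.8-fold below day 11. Which cells of the piece carried the Prdm1 RNA at each age was not tested. Hao2, a peroxisomal hydroxyacid oxidase, was at 8.65, 8.96 and 8.77 on day 11, 4.68, 4.14 and 5.08 on day 24, and 5.29, 5.91 and 6.68 on day 32, a wider spread. The rest of the 12 deepest dips were Zfp950, Ankrd44, Pnisr and the unnamed transcript 4632427E13Rik, at -1.26 to -1.43 in the smaller difference. Of the 6 other tested Pnisr probe sets 4 were called dips, while the others averaged higher on day 24 than on day 32. The other 4632427E13Rik probe set was at -0.62 against day 32 and was not called. With 18S held constant 8 of the 12 were still called, and Hao2, Ankrd44, Pnisr and 4632427E13Rik were not.

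**Figure D5:**
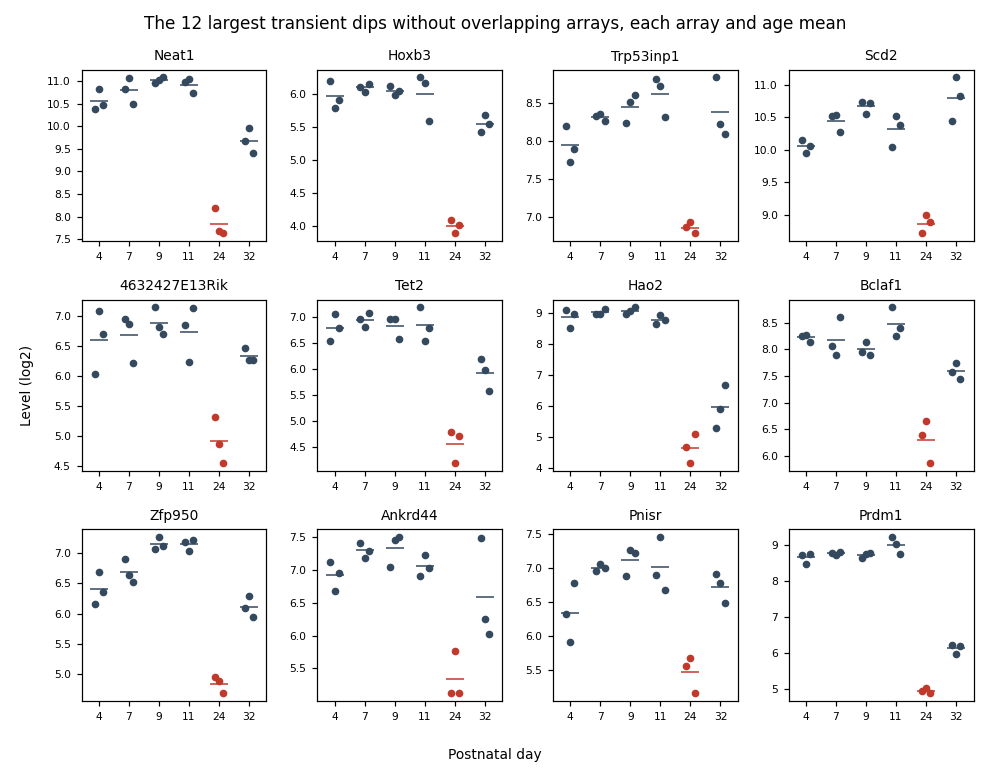
Log2 levels on each array (points) with age means (lines), by postnatal day, of the 12 largest transient dips among those chosen for arrays that do not overlap days 11 and 32, with day 24 in red and a scale for each panel. Scd2 was higher on day 32 than on day 11, while Prdm1 and Hao2 stayed far below day 11, and Neat1 averaged 7.83 on day 24 against 10.92 on day 11 and 9.68 on day 32.

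Lists of epithelial lipid and bile acid handling held single dips (2.91% of all genes tested were dips). With 8 to 19 tested genes to a list, 1 dip says little about the list. Cd36, the fatty acid translocase, was at 6.74, 7.61 and 7.13 on day 11, 6.23, 5.73 and 5.57 on day 24, and 7.02, 6.74 and 6.72 on day 32, the only dip of 19 tested lipoprotein and fat absorption genes. Nr1h4, the bile acid receptor FXR, was at 8.87, 9.12 and 8.90 on day 11, 8.15, 8.52 and 8.80 on day 24, and 8.80, 9.02 and 8.99 on day 32 (-0.45 ± 0.14 against day 32; adjusted p = 0.0377), and the call was lost without replicate 1 of day 24 (-0.28), replicate 2 of day 24, or replicates 2 or 3 of day 32. Of 17 cholesterol synthesis genes Insig1 alone was a dip, with overlapping arrays. Its call was lost without replicates 2 or 3 of day 11 or replicates 1 (-0.29 in place of -0.47) or 2 of day 24. Lower on day 24 than on day 32 were 10 of the 17, against 6.09% of all genes tested. Of 13 fatty acid synthesis genes 7 were lower than on day 32 (6.09% of all genes tested were), and Scd2 alone was a dip. Among lysosomal enzymes of the suckling enterocyte, Neu1, the sialidase, was a dip and averaged 9.07 on day 24, against 10.88 on day 11 and 9.56 on day 32, while Glb1 averaged 7.79, 10.51 and 7.68 at those ages and Ctsz 10.19, 12.11 and 9.98. Lgmn, the lysosomal protease legumain, picked after its values were seen, was at 12.35, 12.37 and 12.34 on day 11, 7.10, 7.78 and 7.45 on day 24, and 8.14, 8.62 and 8.07 on day 32. Cd36 lost its call without day 24 replicate 3 (adjusted p = 0.0592) and Neu1 without day 32 replicate 2 (0.0525). Cd36, Nr1h4, Insig1, Neu1 and Lgmn were not kept with 18S.

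Chromatin and RNA-binding families, gathered by symbol after the values were seen, held further dips. Of 22 tested histone lysine methyltransferase and demethylase genes, 5 were dips (Kmt2b, Kmt2c, Kmt2d, Kmt2e and Kdm3b), against 2.91% of all genes tested, and 7 were lower than the average of the neighbours, against 22.2% of all genes (median -0.26). Kmt2d was at 8.40, 7.71 and 7.70 on day 11, 6.59, 6.63 and 7.21 on day 24, and 7.59, 7.24 and 7.42 on day 32, and alone of the 5 was kept with 18S. Srsf5 was the 1 dip of 9 splicing factors (-1.14 ± 0.21 against day 11 and -1.16 ± 0.21 against day 32), Hnrnpdl the 1 dip of 19 Hnrnp genes, and Hoxb3 and Hoxb6 were the 2 dips of 5 tested Hox genes. Ogt and Oga, which add and remove the O-linked GlcNAc sugar on nuclear and cytoplasmic proteins, were both dips, by -1.15 ± 0.15 and -0.85 ± 0.13 against day 11 and by -1.10 ± 0.15 and -0.64 ± 0.13 against day 32. Ogt was kept with 18S, and Oga, Srsf5, Hnrnpdl and Hoxb6 were lost. Of 99 tested Zfp genes, 6 were dips and 2 were peaks, against 2.91% and 1.97% of all genes tested. In promoter composition, the median window of the dips held 19.0 CpG at 61.8% GC and that of the peaks 13.0 CpG at 58.4% GC, against 16.0 CpG and 60.2% over all genes tested.

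Other groups changed with age, with no pulse or a single one called among their tested genes. Over all genes tested 1.97% were peaks and 2.91% dips, so 0 calls in lists as short as these say little about them. Higher on day 24 than the average of the neighbours were all 6 tested Paneth cell genes and 10 of 13 goblet cell genes. The share over all genes tested was 17.7%, and 0 of these Paneth and goblet cell genes were peaks. Defa39, an alpha-defensin whose probe set may read its near-identical relatives, averaged 8.60 on day 11, 12.90 on day 24 and 12.32 on day 32. Zg16, a goblet cell lectin, averaged 4.50, 13.12 and 13.00 at those ages. Plasma cell genes were midway on a rise, with the IgA heavy chain Igha at a mean of 4.44 on day 11, 10.21 on day 24 and 13.04 on day 32. Of 13 imprinted growth genes 12 were lower than the average, against 22.2% of all genes tested. Of these 13, 0 were dips, as with Meg3 at 9.22, 5.71 and 6.11. Of 20 cell cycle genes 7 were higher and 1 lower than the average, against 17.7% and 22.2% of all genes tested. The cell cycle list held 0 peaks, and of the 15 fatty acid oxidation genes 0 were peaks or dips (1.97% and 2.91% of all genes tested). Single pulses of small size were Herpud1 among 14 unfolded protein response genes (0.38 ± 0.12 over day 32), Ndufb5 among 16 oxidative phosphorylation genes (0.37 ± 0.10 over day 32) and the dip of Fn1 among 17 matrix and fibroblast genes (-0.42 ± 0.12 against day 32). None of these 3 was kept with 18S, and each lost its call without several of the single arrays. No pulse was found among the tested markers of T cells, macrophages, mast cells, Peyer patches, tuft cells, nerve, endothelium, mesothelium, fat, liver, pancreas, red cells or skeletal muscle, or among the clock, antioxidant, crypt stem cell, amino acid response and antigen presentation genes. For some of these cells few markers could be tested, so the lack of a pulse says little. Mast cells, red cells and skeletal muscle had 1 tested marker each, tuft cells 2, and Peyer patches, mesothelium, liver and pancreas 3 each. Kit, the mast cell marker, averaged 6.39 on day 11, 5.63 on day 24 and 6.35 on day 32. Its day 24 arrays lay below all 6 neighbouring arrays, without a call against day 32.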

How the data were processed

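Ileum RNA of 18 mice was measured on Affymetrix arrays. The authors deposited 1 log2 expression value per probe set and array. Per the submitters' processing notes the tool was RMA; its version and options, and array batches, are not given in those sources. Values ran from 1.68 to 13.71. No detection calls were given, and the number of arrays limits the precision. Within days 11, 24 and 32 arrays correlated at 0.983 or more, and 0 pairs were identical. Replicate numbers follow accession order, and only name arrays. Separate mice were sampled, 3 to an age.

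Of 45101 probe sets, 64 are controls, 34945 had 1 gene symbol in the platform annotation and 932 had several and were left out; 34754 were matched by Entrez identifier to the GRCm38.p6 gene table. Probe sets of near-identical genes can read each other's transcripts. A gene was represented by its probe set with the highest mean and tested if it reached log2 6 on 3 arrays. Age, a factor with 6 levels, was fitted by lmFit and eBayes of limma 3.58.1 (R 4.3.3) on all 18 arrays, leaving 12 residual degrees of freedom (median residual SD 0.176). P-values were adjusted by Benjamini and Hochberg over the 8621 genes, and a gene was called below 0.05. Errors of differences are standard errors from that fit. The fit was tested on simulated data.

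Genes named are the 12 largest peaks and dips without overlap by the smaller difference, up to 3 peaks and 3 dips of each of 46 lists, up to 2 members of lists without any, and stage and sex checks; others are marked as picked later. The comparison, lists and rules were chosen with earlier results of these data known, so no list is independent support. Of 46 lists, 45 had a tested member. Promoter windows came from RefSeq. Alternatives were other filters, normalizations and probe set summaries, limma options, covariates, and arrays left out.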

Additional observations from a re-analysis of the deposited data

Results flagged for a closer look

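A signal outside the gene measurements stood out. The control probe sets for 18S ribosomal RNA, which enter no comparison, averaged 10.47 on day 24, against 7.06 over the arrays of days 11 and 32, a log2 difference of 3.40 (two-sided exact permutation p = 0.0119, the smallest that 3 arrays against 6 allow). The labels say that copying was primed from poly-A tails. Its part in the pulses was not tested beyond the fit with the 18S level held constant. The poly-A spike controls did not share this course, at 5.31 to 5.53 on day 24, against 3.53 to 4.20 on day 11 and 4.98 to 6.37 on day 32.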

How the results depend on the processing

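The main counts were 1526 genes higher and 1911 lower than the average of the neighbours, 5100 called against day 11, 1062 against day 32, 170 peaks and 251 dips. Counts over 1.5 times away, in that order where given, were as follows. With 18S held constant they were 756, 594, 3176 and 192, with 43 peaks and 36 dips, and the median of all genes moved up by 0.10. A filter at log2 8, which tests 3739 genes, gave 774, 907, 2394 and 577, with 81 peaks and 108 dips. Averaging the probe sets of each gene gave 1270 lower and 167 dips, and quantile normalization 261 peaks, with 54.5% of the genes called against the average higher in place of 44.4% and 62.6% in place of 50.6% against day 32; median centring gave 57.5% there. The 9 arrays alone gave 492 against day 32, 80 peaks and 122 dips. The poly-A controls as a covariate gave 1006 higher, 2807 against day 11, 106 peaks and 142 dips. Adjusting the larger of a gene's p-values gave 86 peaks and 120 dips, and asking for 1.5-fold against both 79 and 105. Added after seeing the data, the beta-actin difference as a covariate gave 672 against day 32 and 146 dips, and leaving out day 11 replicate 1 with day 24 replicate 3 gave 982 higher.

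Leaving out 1 array gave 94 to 212 peaks, 141 to 285 dips, 569 to 1192 genes against day 32, 4651 to 5133 against day 11, and 1057 to 1593 higher and 1540 to 1971 lower than the average. The lowest came without day 32 replicate 2 (94 peaks, 155 dips, 569 against day 32), day 24 replicate 3 (108 peaks, 141 dips, 640) and day 32 replicate 1 (110 peaks, 684). Xist read 10.05, 5.12 and 10.13 on day 11, 4.41, 8.68 and 4.35 on day 24, and 4.43, 3.86 and 4.09 on day 32. The female pattern was thus seen in replicates 1 and 3 of day 11, in replicate 2 alone of day 24, and in no array of day 32. The mix of sexes therefore changed along the ages compared, and Xist as a covariate gave 138 peaks and 198 dips. Of named genes, 3 changed sign without passing the test: Tnfaip3 at -0.044 with its probe sets averaged, Actg2 at -0.080 with the poly-A covariate, and the endothelial Emcn at 0.21 against the average with 18S. The causes were not tested. No paired analysis was possible because the titles carry animal numbers and none is shared among days 11, 24 and 32 (1 number occurs on both day 7 and day 9). Dim genes near the array medians are the least certain, since their levels rest on the background correction.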

Other observations

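Some further genes among the pulses were picked after their values were seen. Gata4, a transcription factor of the proximal small intestine, averaged 5.24 on day 11, 6.24 on day 24 and 4.18 on day 32. Cebpd, a transcription factor of acute responses, stood 3.20 ± 0.21 above day 11 and 1.00 ± 0.21 above day 32 on day 24, and Osgin1, a gene of the oxidative stress response, 1.93 ± 0.17 and 1.00 ± 0.17. S100g, the intestinal calcium-binding protein calbindin-D9k, was at 8.63, 8.94 and 9.02 on day 11, 8.90, 9.85 and 9.57 on day 24, and 5.91, 5.84 and 6.89 on day 32. Its arrays of day 24 overlapped those of day 11 (0.58 ± 0.24; adjusted p = 0.0474), and the larger difference was the one against day 32 (3.23 ± 0.24). The divalent metal transporter Slc11a2 was at 9.19, 9.21 and 8.91 on day 11, 5.30, 5.39 and 5.54 on day 24, and 6.15, 6.14 and 6.11 on day 32, a dip of -0.72 ± 0.13 against day 32 with narrow groups, though 0 of its 2 other tested probe sets were called. Cldn4, a tight junction protein, dipped by -0.56 ± 0.12 against day 32 after a fall of -2.01 ± 0.12 against day 11. Lama3, a laminin chain of the basement membrane, spread from 6.09 to 7.74 over the arrays of day 24, against 8.45 to 8.76 on day 11 and 7.87 to 8.29 on day 32. None of these 7 genes was kept as a pulse with the 18S level held constant.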
